A study of Mus musculus with 16 samples.

Results

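The transcripts described here encode the cytosolic factors that start and extend protein synthesis, the eukaryotic initiation factors (eIFs) and elongation factors (eEFs), in whole thyroid tissue of mice on a control diet or on overnutrition. Members were the protein-coding genes whose symbol starts with Eif1 to Eif6 or with Eef, apart from those starting with Eif2ak or Eif2s1, and 63 of the 21640 genes in the count table met this rule. The mice were male C57Bl/6J without any genetic change, given their diets from 8 weeks of age. Mice on the control diet (CD) ate chow, and mice on the overnutrition diet (HF+SD) had fatty food and sucrose in their water together, so fat and sucrose cannot be told apart. Thyroids were collected after 3 weeks (3W) or 6 weeks (6W), and 1 poly(A)-selected library per mouse was read for 4 mice in each of the 4 groups, with 30025256 to 48508653 counts per library.

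Initiation begins when eIF2 delivers the initiator tRNA to the small ribosomal subunit, with eIF3 holding the complex together and the eIF4 proteins bringing it to the capped end of an mRNA. The 4E-binding proteins occupy eIF4E and keep it from this task until the kinase mTORC1 phosphorylates them, and eIF2B recharges eIF2 with GTP. During elongation eEF1A brings each aminoacyl-tRNA and eEF2 moves the ribosome on. Thyrocytes depend on this machinery because they make thyroglobulin, a very large secreted protein, in great amounts.

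Values are CPM, that is, counts per 1000000 of a library's size after trimmed mean of M-values (TMM) correction within a time point. Library project numbers changed with the time point, so levels were compared between diets and not between 3W and 6W. A gene was called changed at an adjusted p under 0.05 in edgeR's quasi-likelihood test, adjusted over all genes tested, and all 63 members were tested at both time points. The sources do not say that the mice came from separate cages or litters, so p-values measure the spread between these mice. The tissue was read in bulk, and a lower level can come from fewer cells of a type or from less RNA per cell, which cannot be told apart.

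Per kilobase of exon, elongation factor transcripts stood at the top of the family. Eef1a1, the ubiquitous eEF1A, ranked first in each of the 4 groups, with 1213 ± 97.2 CPM per kb (SD, n = 4) on the CD and 965 ± 14.6 under HF+SD at 3W. Eef2 ranked second in each group, at 523 ± 36.5 CPM per kb on the CD and 485 ± 11.2 under HF+SD at 3W. The start codon scanning factor Eif1 came next at 3W, at 140 ± 48.4 and 125 ± 15.8 CPM per kb. The SD ranges of these 3 did not overlap at 3W, whereas Eef1g, next on the CD at 105 CPM per kb, lay within that of Eif1. The lowest level at 3W belonged to Eif3j2, a copy of the loosely bound eIF3 subunit gene Eif3j1, at 0.183 ± 0.0244 CPM per kb on the CD.

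Several measures of the libraries moved with diet or with single mice. Counts on 30 skeletal muscle marker genes made up 0.117% of the CD library M22 at 6W, 3.98% of M43, 16.9% of M45 and 12.1% of M48. On the HF+SD at 6W they made up 0.143% to 0.477%. At 3W the shares were 0.0141% to 0.0201% on the CD and 0.0234% to 0.0275% under HF+SD, without overlap. Of 26 muscle markers tested at 3W, 3 were called higher on the HF+SD and none lower, namely Cacng1, Pvalb and Pygm. Mean Pygm at 3W was 107 CPM on the CD and 180 CPM under HF+SD. All 30 muscle markers were called lower on the HF+SD at 6W, and the list's mean log2 CPM ran from 4.09 to 12.09 on the CD and from 4.75 to 6.46 under HF+SD. Of 13 thyrocyte markers 7 were called higher on the HF+SD at each time point, all 5 endothelial markers were called higher at both, and 4 of 6 adipocyte markers at 3W and 5 of 6 at 6W were called lower. Brown adipocyte markers were called lower for 3 of 4 at 3W and 2 of 3 at 6W, C cell markers lower for 2 of 4 and 3 of 4, and smooth muscle markers higher for 1 of 4 and 3 of 4. Of 3 parathyroid markers none was called at either time, and of the immune markers tested 0 of 5 at 3W and 1 of 4 at 6W were called. Thyroglobulin, the defining thyrocyte product, held 26.8% to 29.7% of counts at 3W and 4.73% to 13.6% at 6W. At 3W the mean log2 CPM of the thyrocyte list was 7.85 to 8.44 on the CD and 8.89 to 9.08 under HF+SD, and at 6W it was 6.99 to 7.90 and 8.52 to 8.77. The part of the differences in lists other than muscle in the results below was not tested.

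At 3W more translation factor transcripts were lower than higher on the HF+SD, by small amounts. The fitted log2 fold change (HF+SD minus CD) was below 0 for 53 of 63 members, with a median of -0.17 against -0.01 over all 17238 genes tested. In all, 9 members passed the test, 3 higher and 6 lower. By comparison, 14.9% of all genes tested were called, 9.07% higher and 5.78% lower. The diet groups did not overlap for 18 members, 3 higher and 15 lower, against 23.6% of all genes. With a log2 fold change beyond 1 also required, Eif1a alone passed, against 4.66% of all genes. A muscle score, the mean log2 CPM of the 30 muscle markers, was also added as a term in the fit. With it 7 members were called, 4 higher and 3 lower, against 9.78% of all genes. Eef1a1, Eif1a and Eif3e lost their calls (adjusted p of 0.0867, 0.0719 and 0.0871 in edgeR). Many of the muscle markers were near the floor at 3W, such as Myh2 at 0 to 0.18 CPM and Acta1 at 0.11 to 5.87. Pygm, at 86.9 to 191 CPM, was far above the others. The score ran from -1.34 to 1.31 on the CD, with every HF+SD mouse inside that range. At 3W it may thus hold little beyond low-count noise, and whether muscle accounts for the lost calls was not tested.

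The 63 members together took 1.18%, 1.13%, 1.28% and 1.13% of all counts in the CD mice M53, M54, M55 and M96 at 3W. In the HF+SD mice M7, M19y, M20y and M31 the shares were 1.05%, 0.994%, 1.02% and 0.973%. Every CD share was above every HF+SD share, although the gap between the lowest CD mouse and the highest HF+SD mouse was smaller than the range within the CD. The highest CD share belonged to M55, and M55 was the highest of the 4 CD mice for 50 of 63 members, while it was the highest for 34.4% of all genes tested. The members' median in M55 was 0.18 above the CD mean on the log2 scale, and in the other CD mice it was 0.06 to 0.09 below that mean. Without M55 the median log2 fold change of the members at 3W was -0.06, with 45 of 63 below 0, and 11 members were called, among them the same 9.

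**Figure D1:**
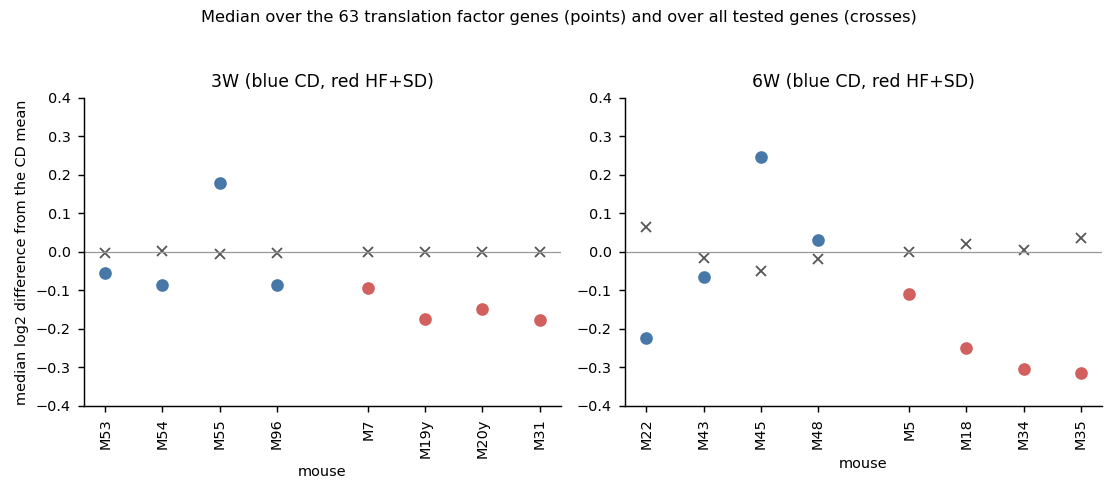
Median over the 63 members (points) and over all tested genes (crosses) of the log2 difference from the mean of the CD mice, for each mouse at 3W (left) and 6W (right), with CD mice in blue and HF+SD mice in red. At 3W the CD mouse M55 sits at 0.18 and the other CD mice between -0.09 and -0.06, near the HF+SD mouse M7 at -0.09, and at 6W the CD mouse M22 at -0.22 lies among the HF+SD mice.

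**Figure D2:**
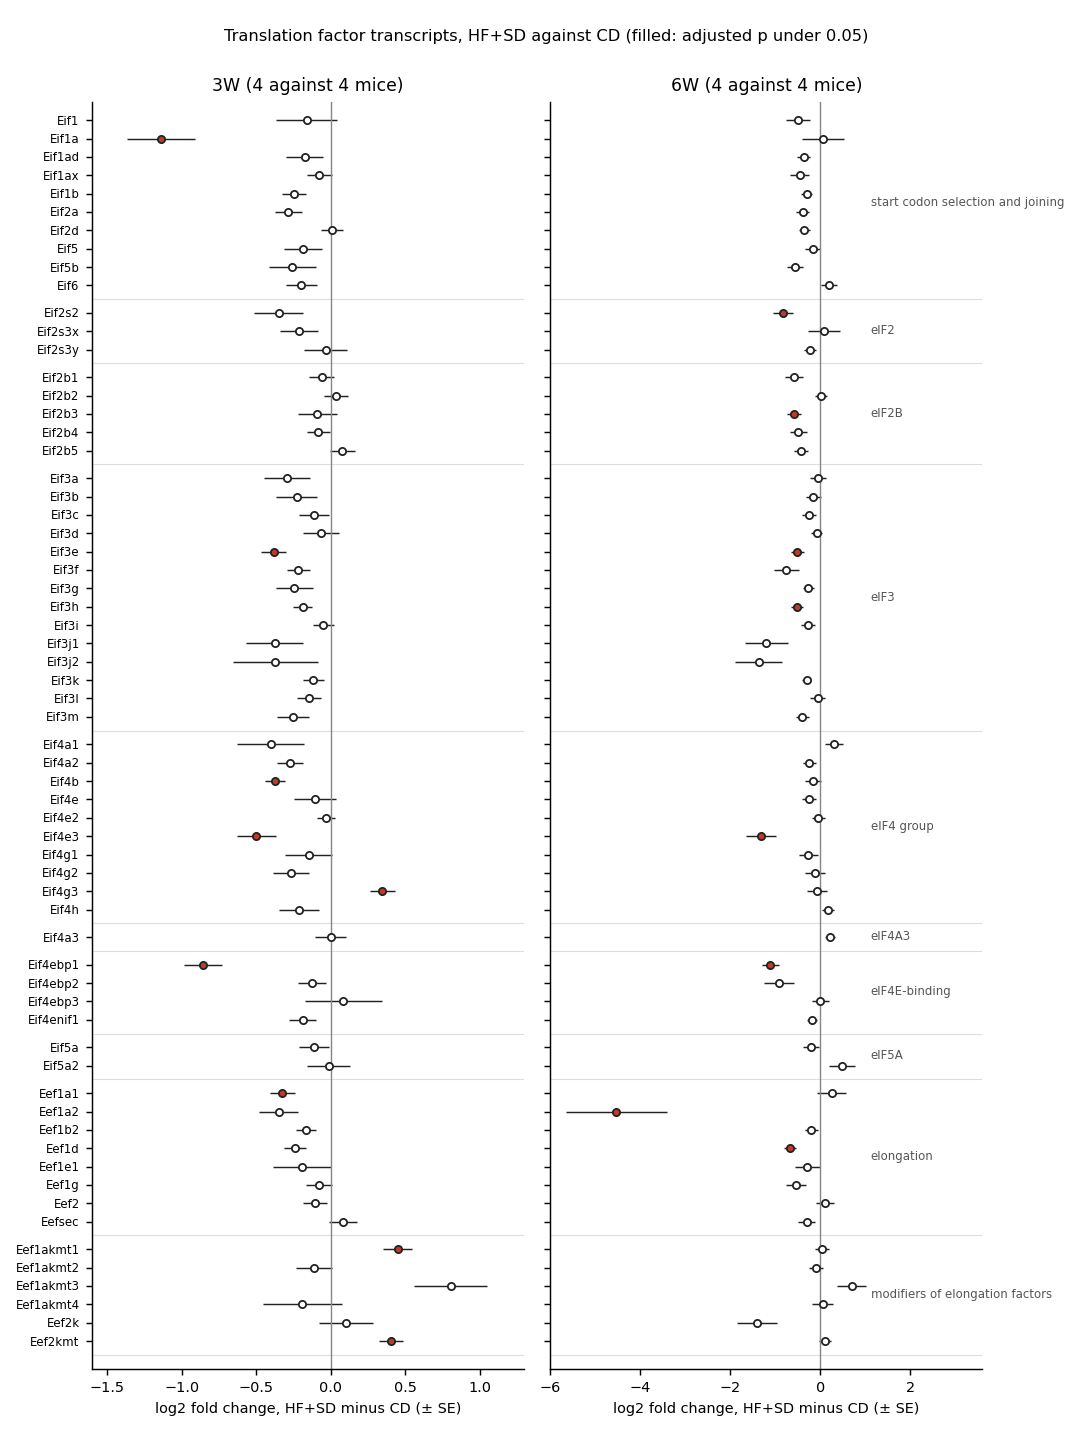
Log2 fold change, HF+SD minus CD, of each member with its standard error (horizontal bars), grouped by role, at 3W (left) and 6W (right, on a wider axis), for 4 against 4 mice. Filled points passed an adjusted p under 0.05: 9 members at 3W and 8 at 6W, with 14 of 14 eIF3 genes left of 0 at both time points.

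The clearest change at 3W was in Eif4ebp1 (ENSMUSG00000031490.7), which encodes 4E-BP1, the inhibitor of the cap-binding protein eIF4E. It stood at 24.1, 23.0, 33.0 and 25.2 CPM in the CD mice M53, M54, M55 and M96. In the HF+SD mice M7, M19y, M20y and M31 it stood at 15.6, 13.6, 15.4 and 13.3 CPM. Each HF+SD mouse was below each CD mouse, and the lowest CD mouse was well clear of the highest HF+SD mouse. The means were 26.3 ± 4.54 and 14.5 ± 1.21 CPM (SD, n = 4), and the log2 fold change was -0.86 (SE 0.13, adjusted p = 0.00248 from edgeR, exact permutation p = 0.0286, the smallest that 4 against 4 allows). It passed under all 14 alternatives other than thyrocyte scaling and a fold minimum, with log2 fold changes of -0.92 to -0.73. The related inhibitor Eif4ebp2 was at -0.12 (SE 0.09, adjusted p = 0.412 from edgeR), with overlapping groups, and Eif4ebp3 at 0.09 (SE 0.26, adjusted p = 0.851 from edgeR).

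Among the eIF4 genes 2 fell and 1 rose at 3W. Eif4b, whose product stimulates the helicase eIF4A, had 320, 315, 281 and 308 CPM on the CD and 227, 241, 233 and 239 under HF+SD, in the mouse order given above. Its groups lay apart, and its log2 fold change was -0.37 (SE 0.07, adjusted p = 0.0067 from edgeR). Eif4e3, a weakly expressed relative of the cap-binding protein, had 9.20, 8.12, 9.31 and 10.8 CPM on the CD and 7.12, 5.77, 7.51 and 6.07 under HF+SD. These groups too did not overlap, and the log2 fold change was -0.50 (SE 0.13, adjusted p = 0.0336 from edgeR). The scaffold gene Eif4g3 was higher, at 121, 142, 149 and 124 CPM on the CD and 172, 166, 167 and 174 under HF+SD. Its log2 fold change was 0.35 (SE 0.08, adjusted p = 0.0221 from edgeR), but -0.44 when libraries were scaled to 9 thyrocyte genes. Canonical eIF4F transcripts did not pass: Eif4e was at -0.10 (SE 0.14), Eif4g1 at -0.15 (SE 0.16), Eif4a1 at -0.40 (SE 0.22) and Eif4a2 at -0.27 (SE 0.09), with adjusted p of 0.0602 in edgeR for Eif4a2.

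Of 10 genes for start codon selection and subunit joining, Eif1a passed at 3W. This autosomal copy of the scanning factor eIF1A had 108, 72.5, 162 and 79.2 CPM on the CD and 54.01, 44.4, 46.9 and 45.9 under HF+SD. The CD mice spread far more than the HF+SD mice, with M55 highest, and the groups did not overlap. The log2 fold change was -1.14 (SE 0.23, adjusted p = 0.0106 from edgeR) and -0.85 without M55. The X-linked copy Eif1ax was at -0.08 (SE 0.08, adjusted p = 0.578 from edgeR), and reads from such similar copies may be split between them in ways the sources do not describe. The remaining 8 ran from -0.28 for Eif2a to 0.01 for Eif2d.

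All 14 eIF3 genes had a log2 fold change below 0 at 3W, from -0.38 to -0.05, and Eif3e passed. Eif3e, a subunit of the octameric core, had 109, 100, 115 and 96.8 CPM on the CD and 86.6, 80.6, 80.5 and 74.4 under HF+SD. No HF+SD mouse reached the lowest CD mouse, and the log2 fold change was -0.38 (SE 0.08, adjusted p = 0.0149 from edgeR). The scaffold subunit gene Eif3a was at 397, 370, 583 and 371 CPM on the CD and 401, 328, 329 and 344 under HF+SD, which overlapped. Its log2 fold change of -0.29 (SE 0.15, adjusted p = 0.228 from edgeR) went with 1 high CD mouse, M55. None of the 3 eIF2 genes and none of the 5 eIF2B genes passed at 3W, the latter between -0.09 for Eif2b3 and 0.08 for Eif2b5, the catalytic subunit of the exchange factor.

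Elongation factor genes at 3W included 1 that fell and 2 modifiers that rose. Eef1a1 (ENSMUSG00000037742.15) had 2902, 2805, 3360 and 3026 CPM on the CD and 2436, 2402, 2430 and 2356 under HF+SD. The HF+SD mice were close together and below every CD mouse, and the log2 fold change was -0.32 (SE 0.08, adjusted p = 0.029 from edgeR). Eef1d, Eef1b2 and Eef1g, the subunits of the exchange factor for eEF1A, were at -0.24, -0.17 and -0.08, and Eef2 at -0.11, none past the threshold. A pair of lysine methyltransferase genes was higher. Eef1akmt1, whose enzyme acts on eEF1A, had 9.37, 10.7, 9.49 and 8.65 CPM on the CD and 12.2, 13.4, 13.5 and 13.0 under HF+SD, giving a log2 fold change of 0.45 (SE 0.10, adjusted p = 0.0142 from edgeR). Eef2kmt, whose enzyme acts on eEF2, had 26.2, 29.8, 24.6 and 25.4 CPM on the CD and 36.3, 35.3, 32.9 and 35.1 under HF+SD, giving a log2 fold change of 0.40 (SE 0.08, adjusted p = 0.00965 from edgeR). In both genes the groups lay apart, and in both the sign turned, to -0.33 and -0.37, when libraries were scaled to 9 thyrocyte genes. Eef1akmt3 was at 0.81 (SE 0.24, adjusted p = 0.0531 from edgeR) with overlapping groups, and the eEF2 kinase gene Eef2k at 0.10 (SE 0.18).

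Some of these calls at 3W were lost when 1 mouse was left out. Without 1 HF+SD mouse, 8.27% to 10% of all genes were called, against 14.9% with all mice. Without M53 or M96 it was 10.8% or 11%. Over the 14 alternatives other than thyrocyte scaling and a fold minimum, the log2 fold change of Eef1a1 was -0.36 to -0.27. That of Eif4g3 was 0.30 to 0.45. Eif4g3 lost its call when any of M53, M96, M19y, M20y, M31 or M7 was left out, with adjusted p of 0.0519 to 0.0649 in edgeR. Eif4e3 lost its call without any of these other than M20y (0.0577 to 0.0963), and Eef1a1 without any of the 4 HF+SD mice (0.0739 to 0.0845). Eif3e lost its call without M31 (0.051) and Eef1akmt1 without M20y (0.0514), while Eif4ebp1, Eif4b, Eif1a and Eef2kmt were called with each of the 8 mice left out in turn. In 1 fit of 16 libraries Eif4ebp1, Eef1akmt1 and Eef2kmt were called at 3W, and Eif1a (0.0928) and Eif4b (0.104) were among the 6 that were not.

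**Figure D3:**
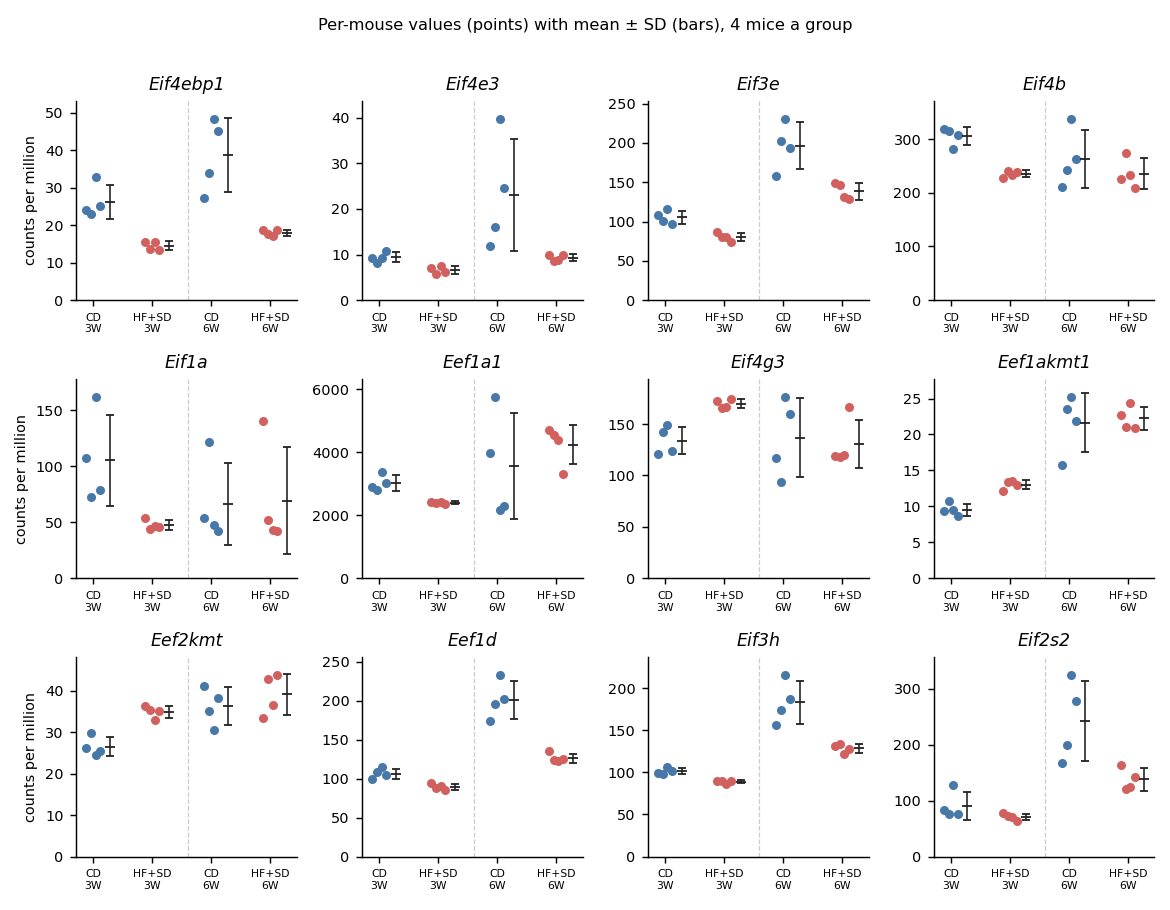
CPM of 12 members in each mouse (points, 4 per group) with the mean and SD beside them, for CD and HF+SD at 3W and 6W, on linear axes from 0. The HF+SD mice of Eif4ebp1 sit at 13.3 to 15.6 at 3W and 17.1 to 18.8 at 6W, below every CD mouse of the same time point, while the 6W groups of Eif4b, Eif1a, Eef1a1, Eif4g3, Eef1akmt1 and Eef2kmt overlap.

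At 6W 8 members passed the test and all were lower on the HF+SD. The background was higher than at 3W, since 21.5% of 18249 genes tested were called, 12% higher and 9.55% lower. The log2 fold change was below 0 for 49 of 63 members, with a median of -0.25 against -0.01 over all genes. The diet groups did not overlap for 13 members, all lower, against 23.8% of all genes. With a log2 fold change beyond 1 also required, 3 members passed, Eif4ebp1, Eif4e3 and Eef1a2, against 12.6% of all genes. For 6W the study's text counts fewer CD mice than the 4 libraries used here, without naming them. With each CD mouse left out in turn, 3 to 22 members were called, the fewest without M48 (12.9% of all genes) and the most without M22 (30.8%).

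The CD mice differed from one another along with their muscle share. Of the 4 CD mice, M45, with the largest muscle share, was the highest for each of the 8 called members and for 41 of 63 members, against 29.3% of all genes. M22, with the smallest, was the lowest CD mouse for each of the 8 and for 37 of 63, against 27.6%. M22 differed from the other CD mice in more than muscle. Its mean log2 CPM of the parathyroid list was 8.7, against 6.1 to 7.2 in the others and 5.0 to 6.5 under HF+SD. For the thyrocyte list it was 7.90 against 6.99 to 7.31 in the other CD mice. The part of these differences in comparisons with M22 was not tested. The members' median was 0.22 below the CD mean in M22, 0.06 below it in M43, 0.25 above it in M45 and 0.03 above it in M48. In the HF+SD mice M5, M18, M34 and M35 it was 0.11, 0.25, 0.30 and 0.31 below the CD mean, so M22 fell within the HF+SD range. With the muscle score as a term, 2 members were called, Eif4ebp1 and Eef1d, against 11.1% of all genes, and the members' median was -0.07. Without M45 and M48 the same 2 were called, against 10.4% of all genes, and with M22 as the only CD mouse none was, with 37 of 63 below 0 and a median of -0.02, while 5.18% of all genes were called. That last fit assumes that the lone CD mouse varies as the HF+SD mice do.

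Eif4ebp1 was 1 of the 2 members whose call at 6W was kept with the muscle score and without M45 and M48. It had 27.3, 33.8, 48.4 and 45.2 CPM in the CD animals M22, M43, M45 and M48. In the HF+SD mice M5, M18, M34 and M35 it had 18.6, 17.5, 17.1 and 18.8 CPM. The 4 HF+SD mice lay close together, and M22, the CD mouse without a large muscle share, was still above all of them. The means were 38.7 ± 9.83 and 18.02 ± 0.817 CPM (SD, n = 4), and the log2 fold change was -1.11 (SE 0.19, adjusted p = 0.00411 from edgeR, exact permutation p = 0.0286). It was -0.69 (adjusted p = 0.013) with the muscle score as a term and -0.76 (adjusted p = 0.018) without M45 and M48, both from edgeR. Against M22 alone it was -0.61 (adjusted p = 0.0821 from edgeR), smaller than with all 4 CD mice.

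Eef1d (ENSMUSG00000055762.17), the delta subunit of the eEF1A exchange factor, followed the same pattern at 6W. It had 174, 196, 233 and 202 CPM on the CD and 135, 123, 122 and 125 under HF+SD, in the same mouse order. M22 was again above every HF+SD mouse, and the log2 fold change was -0.68 (SE 0.13, adjusted p = 0.0083 from edgeR). It was -0.49 (adjusted p = 0.0365) with the muscle score and -0.54 (adjusted p = 0.037) without M45 and M48, both from edgeR. At 3W its log2 fold change was -0.24 (SE 0.07) with an adjusted p of 0.0519 in edgeR, and the groups did not overlap. Without M55 it passed at 3W, at -0.20 (adjusted p = 0.0471 from edgeR).

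The other 6 members called at 6W were not called with the muscle score as a term or without M45 and M48. Nor were they called without any of the HF+SD mice M18, M34 or M35, with adjusted p of 0.0594 to 0.111 in edgeR, and 5 of the 6 were lost without M48, 3 each without M45 or M5, and Eif3e also without M43. Eif2s2, the beta subunit of eIF2, had 167, 200, 324 and 279 CPM on the CD and 164, 121, 124 and 142 under HF+SD, giving a log2 fold change of -0.82 (SE 0.22, adjusted p = 0.0294 from edgeR). M22 was close to the highest HF+SD mouse, and the log2 fold change was -0.33 (adjusted p = 0.228 from edgeR) with the muscle score. Eif2b3, the gamma subunit of eIF2B, fell from 18.7, 21.6, 28.7 and 25.3 CPM to 17.3, 15.8, 13.9 and 16.1, at -0.59 (SE 0.16, adjusted p = 0.0286 from edgeR). The other eIF2B genes did not pass, from -0.59 for Eif2b1 to 0.01 for Eif2b2. Among 14 eIF3 genes, again all below 0, Eif3e and Eif3h were called. Eif3e had 158, 202, 231 and 194 CPM on the CD and 149, 147, 131 and 128 under HF+SD, and Eif3h had 156, 174, 216 and 188 against 131, 134, 122 and 128. Their log2 fold changes were -0.51 (SE 0.15, adjusted p = 0.0371) and -0.52 (SE 0.14, adjusted p = 0.0256), both from edgeR, and with the muscle score -0.27 and -0.32 (adjusted p of 0.263 and 0.167). Eif4e3 had 11.9, 15.96, 39.8 and 24.6 CPM against 9.95, 8.63, 8.88 and 9.89, at -1.31 (SE 0.34, adjusted p = 0.0237 from edgeR), and with the muscle score at -0.47 (adjusted p = 0.246).

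Eef1a2, the eEF1A isoform of muscle and neurons, gave the most negative value of the 63 at 6W. It had 2.47, 47.3, 296 and 205 CPM in the CD animals M22, M43, M45 and M48 and 10.3, 4.25, 4.15 and 5.27 on the HF+SD. The order of the CD mice was that of their muscle share, and M22 was below all 4 HF+SD mice, so the groups overlapped. Its fitted change of -4.53 on the log2 scale (SE 1.13, adjusted p = 0.0216 from edgeR) turned to 0.13 with the muscle score and to 1.27 against M22 alone, with adjusted p of 0.741 and 0.242. At 3W, where muscle reads were few, Eef1a2 stood at 10.1 ± 1.34 CPM on the CD and 7.88 ± 0.915 under HF+SD (SD, n = 4).

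Several members that did not pass at 6W were also extreme in M45 and M48. The kinase gene Eef2k had 5.75, 8.56, 29.98 and 15.3 CPM on the CD against 5.16 to 6.65 on the HF+SD. Eif3j1 had 29.3, 68.6, 195 and 113 CPM against 35.8 to 60.4, and Eif4ebp2 had 53.02, 53.9, 160 and 98.7 against 43.3 to 57.8. In all 3 the mouse M22 was within or next to the HF+SD range, while M45 and M48 were far above it. Eef1a1 was lower in M45 and M48 than in M22 and M43, at 3979, 5760, 2174 and 2304 CPM on the CD against 3325 to 4716 on the HF+SD, with a log2 fold change of 0.25 (SE 0.33, adjusted p = 0.62 from edgeR). Its share of the members' counts was 34.8% and 39.6% in M22 and M43, 16.1% and 19.5% in M45 and M48, and 31.1% to 37.5% on the HF+SD. The members' share of all counts overlapped at 6W, at 0.974% to 1.51% on the CD and 1.16% to 1.41% under HF+SD.

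**Figure D4:**
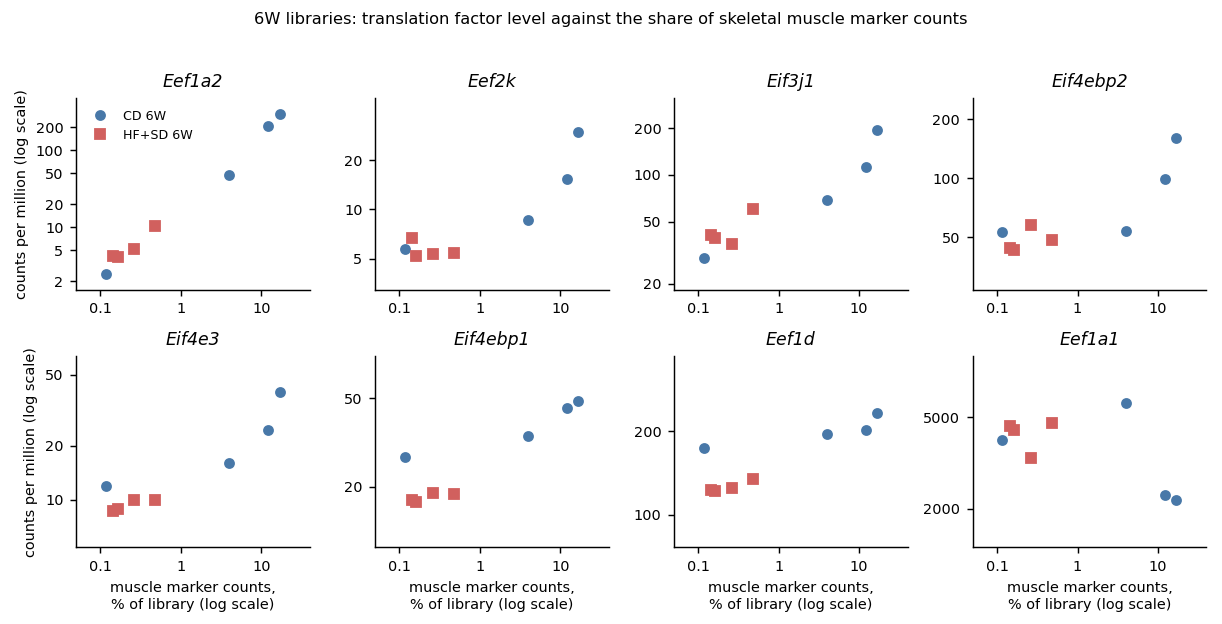
CPM of 8 members at 6W against the share of each library's counts on 30 skeletal muscle marker genes, both on log axes, for 4 CD mice (circles) and 4 HF+SD mice (squares). Eef1a2, Eef2k, Eif3j1, Eif4ebp2 and Eif4e3 are highest in the CD mice with 12.1% and 16.9% of muscle counts and Eef1a1 is lowest there, while the circle of M22 at 0.117% stays above all squares for Eif4ebp1 and Eef1d.

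Factors named for their roles had these log2 fold changes at 6W, none past the threshold. The eIF4F genes Eif4e, Eif4g1, Eif4a1 and Eif4a2 were at -0.25 (SE 0.16), -0.27 (SE 0.21), 0.31 (SE 0.20) and -0.24 (SE 0.15). Eif5a, the hypusinated factor that helps ribosomes through difficult peptide bonds, was at -0.21 (SE 0.19), and its paralog Eif5a2 at 0.47 (SE 0.29). Eef2 was at 0.10 (SE 0.20), Eef1b2 at -0.21 (SE 0.14), Eif6 at 0.20 (SE 0.18) and the exon junction helicase gene Eif4a3 at 0.21 (SE 0.12). The gamma subunit genes of eIF2 on the X and Y chromosomes, Eif2s3x and Eif2s3y, were at 0.08 (SE 0.35) and -0.23 (SE 0.13). Eif5b, the subunit joining GTPase, was at -0.56 (SE 0.18, adjusted p = 0.0546 from edgeR) and Eef2k at -1.41 (SE 0.45, adjusted p = 0.0524 from edgeR).

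Called at both time points were 3 members, Eif4ebp1, Eif4e3 and Eif3e, each lower both times. Another 6 were called at 3W alone, 5 at 6W alone and 49 at neither, and none was called in opposite directions. These counts were not made over all genes, so they are not read as a result about the members. At 3W 14.9% and at 6W 21.5% of all genes were called. With the muscle score Eif4e3 was not called at 6W and Eif3e at neither time. The difference between the diet effects at 6W and 3W was tested as an interaction over all 16 libraries. It passed for 0 of 63 members in edgeR and for 15 of 18929 genes, 0.0792%. At an unadjusted p under 0.05 in edgeR were 16 of 63 members and 4217 of 18929 genes, a similar share. DESeq2 called 3 members, Eef1a2, Eef2k and Eef1d, all more negative at 6W, and 9.46% of all genes. Leaving out M22, the CD mouse with few muscle reads, gave 11 members and 14.1% of all genes in edgeR, and leaving out M43 gave 6 members and 6.7% of all genes. For Eif4ebp1 the interaction was -0.31 (adjusted p = 0.473 from edgeR).

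**Figure D5:**
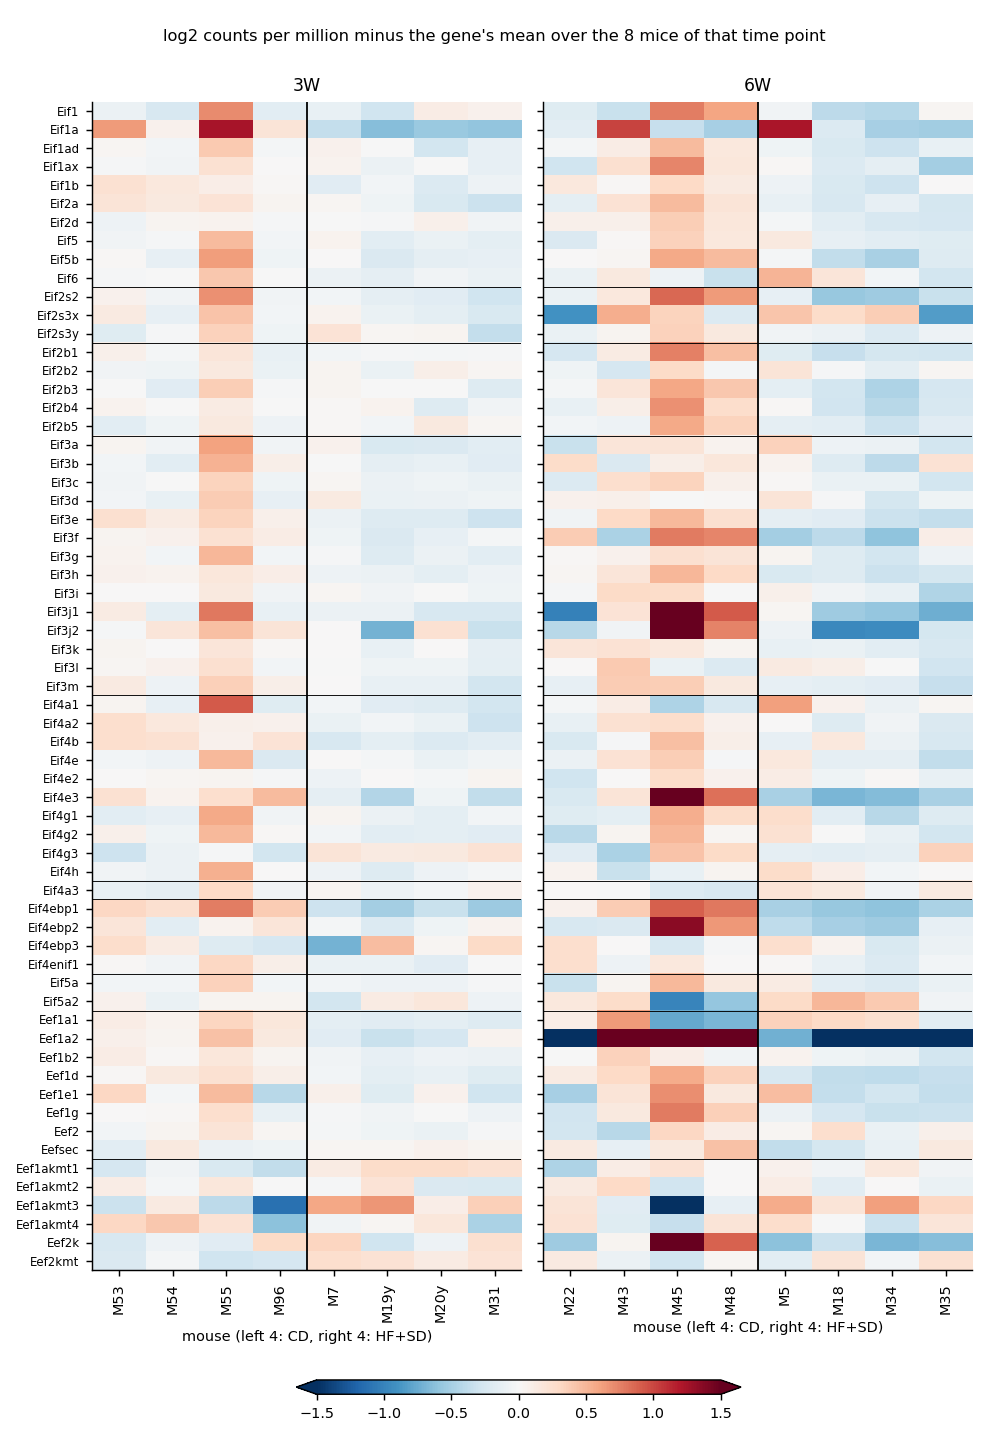
Log2 CPM of the 63 members (rows, grouped by role) in each mouse, as the difference from the gene's mean over the 8 mice of that time point, for 3W (left) and 6W (right), with CD mice to the left of the line and colours limited to 1.5 either way. The red columns of M55 at 3W, the highest CD mouse for 50 of 63 members, and of M45 at 6W, the highest for 41 of 63, stand out more than the diet groups do.

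Pairs of related genes showed whether 1 copy moved without the other. The level of Eif4ebp1 per kilobase was 0.50 ± 0.09 (SD, n = 4) times that of Eif4ebp2 on the CD at 3W, from 0.42 to 0.63, and 0.30 ± 0.03 on the HF+SD, from 0.25 to 0.32, with no overlap. At 6W these ratios were 1.25 ± 0.36 and 0.99 ± 0.09, which overlapped, with Eif4ebp2 high in M45 and M48. The ratio of Eif1ax to Eif1a was 0.42 to 0.78 on the CD and 1.13 to 1.24 under HF+SD at 3W, again apart, and 1.00 to 3.59 and 0.74 to 2.19 at 6W. Eef1a2 relative to Eef1a1 was 0.0038 to 0.0043 on the CD and 0.0035 to 0.0046 under HF+SD at 3W, and at 6W it was 0.00074 in 1 CD mouse and up to 0.16 in another. The ratio of Eif4a2 to Eif4a1 was 0.86 to 1.87 on the CD at 3W, with the low value in M55, and 1.48 to 1.69 on the HF+SD.

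Genes of the neighbouring pathways were also looked up. Since 14.9% of all genes were called at 3W and 21.5% at 6W, the counts in these short lists are not read as a result. Among 13 genes of mTORC1 signalling, the kinase gene Mtor was called higher at 3W, at 105, 119, 122 and 106 CPM on the CD and 148, 152, 136 and 166 under HF+SD (log2 fold change 0.42, SE 0.09, adjusted p = 0.0117 from edgeR). Rps6kb1, the gene of its substrate S6K1, was called lower, at 49.5, 46.4, 59.1 and 53.9 CPM against 42.3, 41.4, 37.9 and 35.0 (-0.41, SE 0.10, adjusted p = 0.022 from edgeR). The groups of both lay apart at 3W. At 6W the mTORC1 subunit gene Mlst8 alone passed in this list, higher at 0.38 (SE 0.12, adjusted p = 0.048 from edgeR). None of 8 termination and recycling genes and none of 5 poly(A)-binding protein genes passed at 3W, and at 6W 2 and 1 of them were lower, namely Hbs1l (-0.73), Denr (-0.49) and Pabpc4 (-1.47). Hbs1l had 49.3, 65.6, 104 and 78.2 CPM in M22, M43, M45 and M48 against 40.8 to 50.1 on the HF+SD, and Pabpc4 had 47.0, 74.1, 244 and 163 against 39.7 to 55.6. In both, M22 lay within the HF+SD range and the CD mice with more muscle reads lay above it, whereas the groups of Denr did not overlap. Both enzymes that hypusinate eIF5A, Dhps and Dohh, missed the threshold at both times. Of 7 genes for the diphthamide modification of eEF2, Dph1 was higher at 6W (0.76, SE 0.16, adjusted p = 0.0125 from edgeR). Of 10 mitochondrial translation factor genes, Tsfm was higher at 3W (0.44, SE 0.11, adjusted p = 0.0225 from edgeR). Of 20 cytosolic aminoacyl-tRNA synthetase genes, Vars was lower at 3W (-0.48), and Kars (-0.71) and Lars (-0.48) at 6W. Kars had 72.8 CPM in M22, within the 67.9 to 74.4 of the HF+SD mice, and 102, 164 and 119 in M43, M45 and M48, while the groups of Lars lay apart.

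The ribosome itself showed a tilt of the same sign. Of 80 cytosolic ribosomal protein genes, 37 were called lower and none higher at 3W, with a median log2 fold change of -0.23. At 6W 39 were lower and none higher, with a median of -0.41. Of all genes tested, 5.78% were called lower at 3W and 9.55% at 6W. The list's share of counts at 6W was 2.78% to 4.36% on the CD, with M45 lowest, and 3.06% to 3.20% under HF+SD. The part of the muscle share in the 6W calls was not tested for this list. Many ribosomal protein mRNAs and some factor mRNAs begin with a 5′ terminal oligopyrimidine (TOP) tract, through which mTORC1 controls their translation. Of the members, 10 are textbook TOP mRNAs, among them Eef1a1, Eef2, Eif3e and Eif4b. All 10 were below 0 at 3W, with 3 called lower and a median of -0.23, against a median of -0.14 in the other 53 members. At 6W 8 of 10 were below 0, with 3 called lower and a median of -0.36, against -0.25 in the others.

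Start regions from RefSeq (build GRCm38.p6, 250 bases before to 50 after each start) were at hand for 48 members, with 62 starts. The table had no match for Eef1akmt1, Eef1akmt3, Eef1d, Eef1g, Eif1a, Eif2b3, Eif3e, Eif3h, Eif3i, Eif3j2, Eif4e3, Eif4ebp1, Eif4ebp3, Eif4g2 and Eif6. A run of at least 6 pyrimidines beginning with C lay within 15 bases of the start in 16 of 62 member starts, or 25.8%, in 50% of 72 starts of ribosomal protein genes and in 23.6% of 15972 starts of all tested genes. The 4 windows of 30 bases below show it, with the start at base 16 and the longest run in capitals. They are given because Eef1a1 and Eif4b were called at 3W, Eef1a2 at 6W, and Eif3f has the longest such run among the eIF3 genes matched. They lie at chr9:78481710-78481739 (minus strand), chr15:102073758-102073787 (plus), chr2:181157001-181157030 (minus) and chr7:108934400-108934429 (plus), in this order. The runs of Eif4b and Eef1a2 begin 12 and 14 bases before the start and end before it, so they lie outside the annotated mRNA. Those of Eef1a1 and Eif3f begin 5 and 4 bases before the start and extend past it. All these positions rest on the annotated starts, and whether the thyroid uses the same starts was not tested. Eef2 had no such run at its annotated start. Nor had the other called members with a matched start, Eef2kmt and Eif4g3 at 3W and Eif2s2 at 6W.
Eef1a1: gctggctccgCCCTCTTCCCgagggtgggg
Eif4b: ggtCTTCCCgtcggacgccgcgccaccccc
Eef1a2: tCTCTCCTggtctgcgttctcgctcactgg
Eif3f: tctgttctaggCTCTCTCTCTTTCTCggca

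The motif CACGTG, the canonical E-box read by MYC and related factors and identical on both strands, was in 15 of 62 member start regions, or 24.2%. It was in 11.1% of ribosomal protein starts, 9.13% of starts of all tested genes and 7.15% of 32851 starts in the table, without matching on base composition. At least 1 such start was found for 13 of 48 members, or 27.1%, against 10.9% of tested genes. The 6 windows of 30 bases around the motif, in capitals, are examples from members of the eIF3, eIF4 and elongation groups. They lie at chr19:60790654-60790683 (minus), chr7:28981915-28981944 (minus), chr11:69672595-69672624 (minus), chr3:138527192-138527221 (plus), chr16:20672661-20672690 (plus) and chr10:81176576-81176605 (plus).
Eif3a: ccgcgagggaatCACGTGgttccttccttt
Eif3k: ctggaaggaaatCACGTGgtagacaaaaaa
Eif4a1: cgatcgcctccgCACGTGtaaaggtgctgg
Eif4e: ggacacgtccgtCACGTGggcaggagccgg
Eif4g1: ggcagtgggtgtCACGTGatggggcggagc
Eef2: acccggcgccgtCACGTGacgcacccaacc
The motif of Eif3a begins 23 bases into the transcript and the others begin 43 to 189 bases before the start. TGATGNAA, the element read by ATF4 with its partners, searched on both strands, was in 3.23% of member starts and 2.33% of starts of tested genes. A match is a description of letters and not a bound site.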

How the data were processed

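Whole thyroids of 16 male mice, 4 per diet and time point, were profiled by poly(A)-selected RNA-seq read as 150 bp pairs. Per the labels, the authors trimmed reads with Trim Galore 0.6.7, aligned them with STAR (version not given) to mm39 and used DESeq2 1.36.0 in R 4.1.0. They deposited raw counts per gene, not normalized, and a normalized signal, which is the deposited count divided by 1 size factor per library. Counts were the input here, and log2 of the signal plus 1 served 1 alternative.

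Names and exon lengths came from GENCODE M21, matched without version numbers for 20841 of 21640 genes. One pseudogene with a matching name was left out. At each time point the diets were set against each other by edgeR 4.0.16 under R 4.3.3 (TMM, filterByExpr by group, glmQLFit, glmQLFTest, Benjamini-Hochberg over all tested genes). The SE is the absolute log2 fold change divided by the square root of F. Exact two-sided permutation tests used log2 CPM with a prior count of 2, over 70 arrangements. The fits were tested on simulated data with less spread between mice than these libraries and without their differences in muscle share. Library totals of 30025256 to 48508653 counts leave little counting error beside the spread between mice: between mice of 1 group the chi-square per gene, for genes having 20 or more counts, ran from 15.1 to 871, so no libraries were merged.

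Members and lists were chosen with earlier results of these data known. Members named were those called with a log2 fold change beyond 1, the 10 with the smallest adjusted p at each time point, a set of 21 named for their roles, and the extremes of each role group. Eif1ax, Eif2a, Eif3j1 and Eef1g were added after their values were seen. Other genes are named where called in a list of the pathway. Alternatives were DESeq2 1.42.0, its size factors in edgeR, no filter on low counts, limma 3.58.1 on the signal, 1 fit of 16 libraries, a muscle score as a covariate, scaling to 9 thyrocyte genes, a fold minimum and each mouse left out.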

Additional observations from a re-analysis of the deposited data

Results flagged for a closer look

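Among 132 groups of 4 mice checked for members named in the text, 9 held a mouse far from the other 3, by Dixon's test at its 95% critical value for the gap as a share of the group's range. Chance flags about 1 in 20 groups. Of the 9, 5 were the CD mouse M55 at 3W. It had 127.5 CPM of Eif2s2, where the other CD mice had 76.4 to 82.7. It had 583 CPM of Eif3a against 370 to 397, 564.4 of Eif4g1 against 341 to 365, 252.2 of Eif5a against 193 in each of the others and 67.3 of Eif6 against 50.4 to 50.7. All 5 were on the high side. Also at 3W, the CD mouse M54 was low for Eif5a2, at 3.492 CPM against 3.86 to 3.93.

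At 6W the flagged values were in HF+SD mice. M35 had 25.79 CPM of Eif2s3x, where the others had 55.6 to 61.3, M34 had 45.09 of Eif2b5 against 50.2 to 51.3, and M18 had 6.646 of Eef2k against 5.16 to 5.39. What sets these mice apart was not tested.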

How the results depend on the processing

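At 3W the 9 calls (14.9% of all genes) became 1 with a fold minimum (4.66%), 17 in DESeq2 (21.5%), 3 in 1 fit of 16 libraries (7.5%) and 61 under scaling to 9 thyrocyte genes (77%), and 5 to 11 with 1 mouse left out, the fewest without M31 (8.48%). Their median log2 fold change of -0.17 became -0.063 with the muscle score as a covariate, -0.96 under thyrocyte scaling and -0.21 to -0.055 with 1 mouse left out, the latter without M55. At 6W the 8 calls (21.5% of all genes) became 3 with a fold minimum (12.6%), 18 in DESeq2 (28.3%), 28 in 1 fit of 16 libraries (32.7%), 61 under thyrocyte scaling (84.9%), 2 with the muscle score (11.1%) and 2 to 22 with 1 mouse left out. The count was 22 without M22 (30.8%), 12 without M43 (20.5%), 5 without M45 (15.6%) or M5 (16%), 3 without M48 (12.9%) and 2 without M18, M34 or M35 (10.4% to 12.6%). Chosen after seeing the data, leaving out M45 and M48 gave 2 calls (10.4%) and leaving out M43 as well gave 0 (5.18%). The 6W median of -0.25 became -1.57 under thyrocyte scaling, -0.069 with the muscle score, -0.32 to -0.20 with 1 mouse left out and -0.021 without M43, M45 and M48. The interaction count of 0 became 3 in DESeq2 and 0 to 11 with 1 mouse left out.

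Thyrocyte scaling moved the median of all genes to -0.80 at 3W and -1.28 at 6W, so the members' medians were 0.16 and 0.28 below it. Under it 62 of 63 members were below 0 at 3W, with Eef1akmt3 at 0.06, and 63 of 63 at 6W. Among members that the naming rule takes at a time point and that were called with or without this scaling, it turned Eif2b5 (-0.72), Eif4ebp3 (-0.71), Eif4g3 (-0.44), Eefsec (-0.69), Eef1akmt1 (-0.33), Eef2k (-0.68), Eef2kmt (-0.37) and Eif2d (-0.78) at 3W. At 6W it turned Eif2s3x (-1.26), Eif2b2 (-1.29), Eif4a3 (-1.05), Eif4a1 (-0.93), Eif5a2 (-0.74), Eef1a1 (-0.97), Eef2 (-1.23) and Eif6 (-1.07). Eef1a2 at 6W turned to 0.13 with the muscle score and to 1.27 without M43, M45 and M48. Of the other values of single members, 825 counted as the same. These were called in both fits in 1 direction, or called in neither and within 1 SE of the main value. Those called in neither could change sign and still count as the same. Another 68 gained a call and 76 lost one, and 65, called in neither, moved by 1 SE or more.

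Weakly expressed members had wide errors in some cases, such as an SE of 0.26 for Eif4ebp3 at 3W. No paired analysis was possible because the labels give each mouse its own number, shared by no other group.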
